A study of Mus musculus with 6 samples.

Results

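The ADAMTS proteases are secreted metalloproteinases that remodel the extracellular matrix. Described here are 10 of them, namely Adamts1, Adamts2, Adamts4, Adamts5, Adamts9, Adamts15, Adamts17, Adamts18, Adamts19 and Adamts20, in 2 fractions of glial cells sorted from the neonatal mouse cerebellum. The genes were found by their names in the array annotation, which gave 16 of 55681 probes and 10 of 34836 gene names. The set was chosen by the measured difference between the fractions, since Adamts19 was among the genes where it was largest. This difference is therefore given for all 10 genes as a description, without p-values, and counts of called member probes are descriptions too. Adamts19 ranked at position 5 among the genes higher in A-/G+ by the difference of medians, which was 3.78 on the log2 scale. A top list of 10 genes ended between Actbl2 with 3.63 at rank 10 and 6530402F18Rik with 3.62 at rank 11. Adamts5 stood at rank 53, Adamts18 at rank 118 and Adamts17 at rank 169, and the other members had no called probe. The ranks of Adamts17 and Adamts18 are those of their dimmer probes, and Adamts17 was called at that probe only.

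Both fractions came from wild-type mice, with pooled cerebella of either sex, 3 samples each and 50000 cells per sample. The labels give the strain CD1 and postnatal days 1 to 3, whereas the methods of the study give a C57BL/6 background and days 0 and 1. A+/G+ cells carry ACSA-2, an epitope on the product of Atp1b2, as well as the glutamate transporter GLAST, the product of Slc1a3. They were taken in 1 step with anti-ACSA-2 beads, without a selection for GLAST. The study counted rare cells with ACSA-2 but without GLAST among them. By its flow cytometry both sorted fractions were enriched but also held other cells. A-/G+ cells carry GLAST without ACSA-2 and needed 2 steps, a depletion of cells with L1CAM, ACSA-2, CD45, PSA-NCAM or Ter119 followed by a selection with anti-GLAST. The replicates are labeled as biological, and nothing states which litters they came from, so the standard errors and p-values measure the spread between these samples. Poly(A) RNA was amplified, labeled with the single dye Cy3 and hybridized to arrays with probes of 60 bases. Throughout, the level of a gene is its normalized log2 signal. A difference is A-/G+ minus A+/G+ on that scale, so that a positive value is higher in A-/G+. A gene with more than 1 probe is represented by its brightest probe unless stated. Signals of different probes are not compared with each other, because they also depend on the probe.

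ADAMTS proteases are made with a prodomain that convertases such as furin remove, and their ancillary domain with thrombospondin repeats binds the matrix. Adamts1, Adamts4, Adamts5, Adamts9, Adamts15 and Adamts20 belong to the proteoglycanase branch, which cuts the hyaluronan-binding proteoglycans aggrecan, versican, brevican and neurocan. These proteoglycans fill much of the matrix of the developing brain, where astroglia make several of them. Adamts2 is a procollagen N-propeptidase, which trims fibrillar collagens before they assemble. Adamts17 and Adamts19 form a pair of close paralogs, as do Adamts16 and Adamts18.

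Slide 1 held the 3 A+/G+ arrays and slide 2 the 3 A-/G+ arrays, and this confounds slide with fraction, which therefore cannot be told apart. The 75th percentile of the intensity was 332 to 334 on the A+/G+ arrays, whereas A-/G+ replicates 1, 2 and 3 had 56.6, 113 and 251. Between 26469 and 26653 probes were well above background on the A+/G+ arrays, compared with 18331 to 24726 on the A-/G+ arrays. The lowest normalized signal that counted as well above background was 3.52 to 3.61 in A+/G+ and 5.72, 4.95 and 4.03 on the 3 A-/G+ arrays. Weak signals were therefore harder to measure in A-/G+. The sort was visible in its own markers. Atp1b2 differed by -2.16 (SE 0.18, adjusted p = 0.00725). The GLAST gene Slc1a3 gave 13.26, 13.31 and 13.61 in A+/G+ and 14.85, 14.92 and 13.99 in A-/G+, without overlap, and its difference of 1.19 did not pass (adjusted p = 0.0733). All 10 astroglia markers were well above background on every array. By limma, Aldh1l1 passed in the direction of A-/G+ (difference 0.64, adjusted p = 0.0452). Gfap (-3.03, adjusted p = 0.0182) and S100b (-1.33, adjusted p = 0.0352) passed in that of A+/G+, as Atp1b2 did. Aldh1l1, Gfap and S100b did not pass without each A+/G+ array and without A-/G+ replicate 1. With 1 array left out, their adjusted p from limma reached 0.163, 0.0836 and 0.135, respectively.

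The family divided between the fractions. By their brightest probes, Adamts1, Adamts5, Adamts17, Adamts18 and Adamts19 were higher in A-/G+ on every array, and Adamts2, Adamts9 and Adamts15 were higher in A+/G+ on every array. The arrays of the fractions overlapped for Adamts4 and Adamts20. All 16 member probes entered the fit, of which 10 were well above background on all 6 arrays, while the dimmer Adamts4 probe was so on none. A probe was called when its adjusted p was at most 0.05 and its medians were at least 4-fold apart. This held for 5 member probes of 4 genes in the direction of A-/G+, compared with 0.399% of all probes. It held for 0 in the direction of A+/G+, compared with 1.53%. At brightest probes it held for 3 of the 10 genes in the direction of A-/G+, compared with 148 of 34836 genes. The called dimmer probes, of Adamts17 and Adamts18, were well above background on no A+/G+ array. With the adjusted p alone, 6 member probes passed in the direction of A-/G+ and 1 in that of A+/G+ (4.64% and 4.65% of all probes). At an unadjusted p under 0.05 the limma counts were 8 and 2 of the 16 member probes, compared with 7025 and 5949 of all 55681 probes. In place of 5 calls there were 2, 1 and 2 without A+/G+ replicates 1, 2 and 3, and 3, 3 and 4 without A-/G+ replicates 1, 2 and 3. Without A+/G+ replicate 2, Adamts19 was not called, and the 1 call left was that of the brighter Adamts18 probe. The fractions did not overlap for 9 probes that were higher in A-/G+ and for 4 that were higher in A+/G+ (24.3% and 12.7% of all probes). Nothing is read from these counts, since the same contrast chose the genes.

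**Figure D1:**
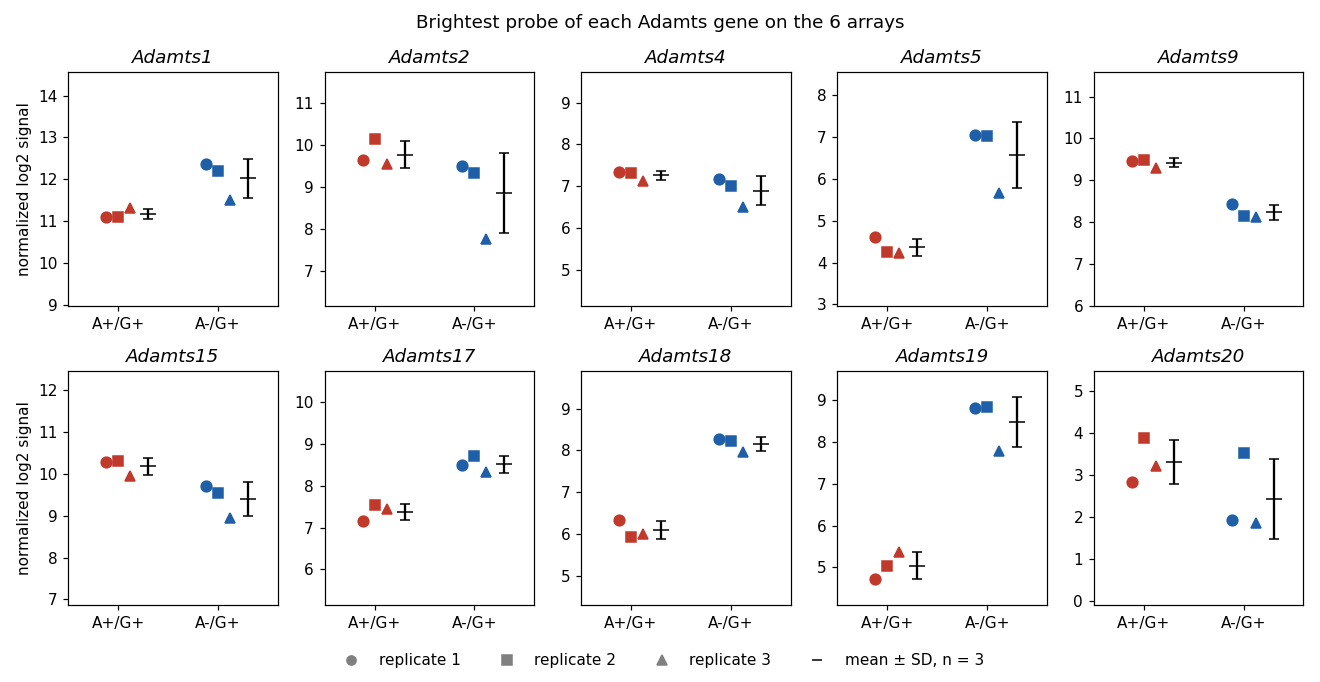
Normalized log2 signal (y axis) of the brightest probe of each of the 10 genes in the 3 A+/G+ and 3 A-/G+ arrays (x axis), with the mean ± SD of each fraction. Each panel spans the same range of log2 units around its own centre, so distances but not heights compare between panels. Adamts19 has the widest gap, and the A-/G+ array of replicate 3 is the lowest of its fraction in all 10 panels.

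Adamts19 had the widest difference of the family. It is a protease whose substrates are poorly known, and its probe spans chr18:59212971-59213030 (mm9). Its signal was 4.73, 5.03 and 5.36 in A+/G+ and 8.80, 8.82 and 7.79 in A-/G+, each in the order of replicates 1, 2 and 3. Each A-/G+ array was thus well clear of each A+/G+ array, and replicate 3 was nearest to them. The means differed by 3.43 (SE 0.353), or 10.8-fold, and the medians 13.7-fold. All 6 arrays had it well above background, so the gene was weak but measurable in A+/G+. With another background correction (normexp with an offset of 50) the difference was 2.11.

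The 5 genes whose profiles over the 6 arrays were closest to that of Adamts19 were Mybpc1, B3galt5, Nphs1, Wif1 and Msx2. They were ranked by the Euclidean distance between mean-centred log2 signals, among 13685 genes that were well above background on every array. The distances ran from 0.392 for Mybpc1 to 0.512 for Msx2, and the median over these genes was 4.22. A profile without any change lay 4.31 from Adamts19, so the likeness mainly restates the difference between the fractions. Mybpc1 encodes a myosin-binding protein, Wif1 a secreted Wnt inhibitor and Msx2 a homeobox factor. Mybpc1 and Wif1 are also on the list of Bergmann glia markers used below.

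Adamts17, the close paralog of Adamts19, was also higher in A-/G+, and by less at its brightest probe. This probe gave 7.17, 7.53 and 7.44 in A+/G+ and 8.49, 8.72 and 8.32 in A-/G+. The 6 values fell into separate ranges, and the difference was 1.13 (SE 0.149), or 2.19-fold, with medians 2.07-fold apart. A second probe, far upstream in the transcript, gave 3.03, 2.78 and 3.45 in A+/G+ and 5.30, 4.57 and 5.07 in A-/G+. Only 1 A-/G+ array and no A+/G+ array had the second probe well above background, so its measured difference of 1.89 gives no firm fold. The call of Adamts17 rests on this second probe alone. The 2 sequences show what each probe reads. The inner probe starts at base 1345 of the transcript as the annotation lists it, on the plus strand of chr7:74147413-74147472 in mm9. The last 30 bases of the end probe, which starts at listed base 5965, lie at chr7:74297478-74297507 on the plus strand. Capitals mark AATAAA, the signal for cutting and polyadenylation, which was searched on the probe strand only.
Adamts17 inner probe: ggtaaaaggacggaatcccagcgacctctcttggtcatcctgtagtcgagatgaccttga
Adamts17 end probe, last 30 bases: agttgaacatgtgtAATAAAatgtttttcc

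Adamts18 was higher in A-/G+ with little spread. This protease has roles in eye, lung and vessel development, and its brighter probe lies at chr8:116222720-116222779. It gave 6.34, 5.92 and 6.01 in A+/G+ and 8.27, 8.23 and 7.97 in A-/G+. The A-/G+ arrays spread by an SD of only 0.16 (n = 3), and the difference was 2.07 (SE 0.150), or 4.19-fold. With normexp the difference was 1.22. A dimmer probe, for which the annotation lists no RefSeq mRNA, gave 3.26, 2.99 and 3.66 in A+/G+ and 4.97, 6.29 and 5.53 in A-/G+. The dimmer probe exceeded background clearly on 0 A+/G+ and 2 A-/G+ arrays, so its measured difference of 2.29 gives no firm fold. Both probes thus ran the same way.

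Adamts16, the paralog of Adamts18 and not itself a member, ran the other way. Its brighter probe gave 7.12, 6.97 and 7.15 in A+/G+ and 5.29, 5.10 and 4.31 in A-/G+. All 3 A+/G+ arrays and 0 A-/G+ arrays had it well above background. Its signal was thus at least 4.10-fold higher in A+/G+ (measured difference -2.18, SE 0.279, adjusted p = 0.0172). The adjusted p from limma ranged from 0.00608 to 0.0816 with 1 array left out, and it exceeded 0.05 without each of the 3 A+/G+ arrays. Without A-/G+ replicate 3 the medians were less than 4-fold apart. The difference between the paralogs was not tested.

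Among the proteoglycanases, Adamts5 and Adamts1 were higher in A-/G+. Adamts5, a strong aggrecanase that also cuts versican, gave 4.61, 4.25 and 4.23 in A+/G+ and 7.04, 7.02 and 5.67 in A-/G+ at its inner probe. Replicates 1 and 2 of A-/G+ agreed closely and replicate 3 lay about midway between them and A+/G+. The difference was 2.21 (SE 0.427), or 4.63-fold. The end probe gave 4.04, 4.91 and 4.49 in A+/G+ and 7.26, 6.65 and 5.44 in A-/G+, a difference of 1.97 (SE 0.535). Both probes exceeded background clearly on every array and showed the same order of A-/G+ arrays. Normexp brought the difference at the inner probe to 1.06. The 2 sequences lie far apart on the minus strand of chromosome 16 and show an inner stretch and one farther downstream with a polyadenylation signal. The inner probe starts at listed base 1861 (chr16:85899450-85899509), and the last 30 bases of the end probe, which starts at listed base 8044, lie at chr16:85858402-85858431. Capitals again mark AATAAA, which was present in 2 of 16 member probes and in 10.1% of all probes.
Adamts5 inner probe: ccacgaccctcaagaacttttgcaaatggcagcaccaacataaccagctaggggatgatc
Adamts5 end probe, last 30 bases: ttaagctaatgcacaggAATAAAaatcagt

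Adamts1, a versicanase that is induced in many tissues by inflammation and hormones, has 1 probe at chr16:85795044-85795103. It gave 11.10, 11.10 and 11.31 in A+/G+ and 12.36, 12.21 and 11.49 in A-/G+. The ranges did not overlap, but A-/G+ replicate 3 was only just above the highest A+/G+ array. The difference was 0.85 (SE 0.253), or 1.81-fold. It was 1.12 without A-/G+ replicate 3.

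Adamts9 and Adamts15 were lower in A-/G+, in the direction opposite to Adamts5 and Adamts1. Adamts9 and its paralog Adamts20 are the largest members, and Adamts9 cuts versican during embryonic development. The brighter Adamts9 probe, at chr6:92723051-92723110, gave 9.47, 9.49 and 9.30 in A+/G+ and 8.43, 8.15 and 8.12 in A-/G+. The fractions were far apart compared with their spread, with a difference of -1.19 (SE 0.113), or 2.28-fold. Its medians were 2.51-fold apart. A dimmer Adamts9 probe without a listed RefSeq mRNA gave 5.52, 5.47 and 5.30 in A+/G+ and 3.09, 5.05 and 4.90 in A-/G+, where 1 of 3 arrays was well above background. Its difference of -1.08 was similar in size, with a larger SE of 0.570.

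Adamts15, which cuts versican and aggrecan, has 1 probe at chr9:30707033-30707092. It gave 10.28, 10.31 and 9.94 in A+/G+ and 9.72, 9.55 and 8.94 in A-/G+. The ranges were separate by a narrow margin, and the difference was -0.77 (SE 0.243), or 1.71-fold. Without A-/G+ replicate 3 it was -0.54.

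Adamts4 and Adamts20 did not separate the fractions. Adamts4, an aggrecanase that also cuts brevican, gave 7.33, 7.31 and 7.13 in A+/G+ and 7.17, 7.01 and 6.50 in A-/G+ at its brighter probe. One A-/G+ array lay inside the A+/G+ range, and the difference was -0.36 (SE 0.195). The second Adamts4 probe was at background on all arrays, and averaging it with the first turned the difference to 0.37. Adamts20, known from the belted coat pattern of mice, gave 2.84, 3.89 and 3.22 in A+/G+ and 1.91, 3.53 and 1.85 in A-/G+. It was well above background on 1 array, so no fold is given, and its difference of -0.89 became 0.016 when arrays were scaled by their 75th percentile.

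Adamts2 was the collagen-processing member, and its result rested on 1 array. Its brighter probe, at chr11:50617472-50617531, gave 9.65, 10.14 and 9.54 in A+/G+ and 9.49, 9.33 and 7.77 in A-/G+. Replicates 1 and 2 of A-/G+ were barely below A+/G+, whereas replicate 3 was far below. The difference was -0.91 (SE 0.523), and it was -0.37 without A-/G+ replicate 3. A dimmer inner probe starts at listed base 1528 on the plus strand of chr11:50590188-50590247. It gave 4.90, 5.62 and 4.78 in A+/G+ and 2.16, 5.12 and 3.00 in A-/G+, where no array was well above background. This is a difference of at least 1.11-fold, and the arrays overlapped. The sequence is shown because this probe, unlike the brighter one, had its second A-/G+ array inside the A+/G+ range.
Adamts2 inner probe: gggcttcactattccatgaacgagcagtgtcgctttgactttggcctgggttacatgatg

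**Figure D2:**
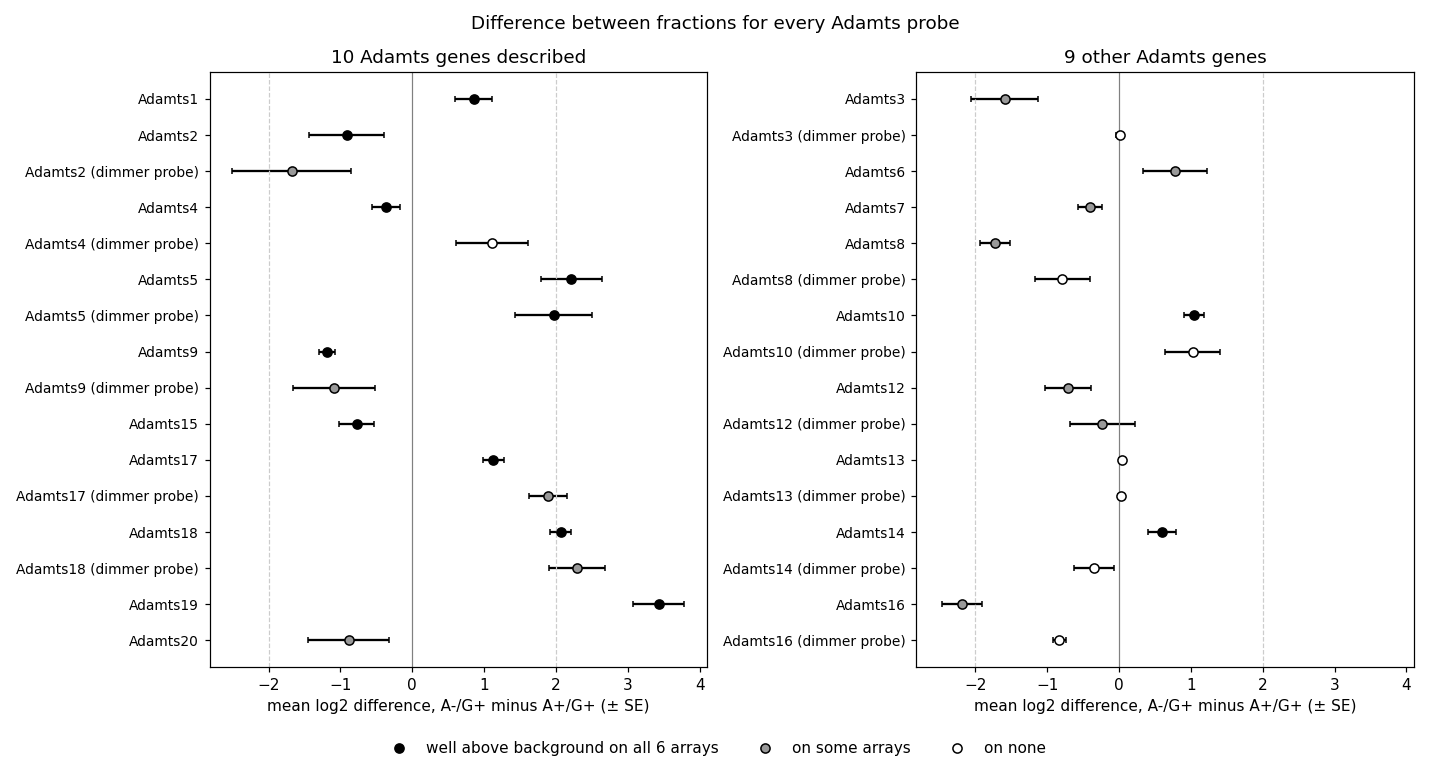
Mean log2 difference between A-/G+ and A+/G+ (x axis, ± SE, 3 arrays each) for every probe of the 10 genes (left) and of the 9 other Adamts genes (right), filled by the number of arrays on which the probe was well above background. Dashed lines mark a 4-fold difference, and where a probe was at background throughout a fraction its difference is no more than a bound. The 2 probes of Adamts2, Adamts5, Adamts9, Adamts17 and Adamts18 lie on the same side of 0, and those of Adamts4 lie on opposite sides.

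The A-/G+ array of replicate 3 was the lowest of its fraction for 10 of 10 members, compared with 47.7% of all genes and 42.5% of genes well above background on all 6 arrays. The mean level over the 10 members was 7.35, 7.50 and 7.35 in A+/G+ and 8.17, 8.26 and 7.44 in A-/G+. On this mean replicate 3 was inside the A+/G+ range. The Bergmann glia markers were also lowest on this array, with a mean of 10.66 compared with 11.10 and 11.19. Among the A-/G+ arrays, the astroglia, meningeal fibroblast, Purkinje, substrate and regulator means were lowest on this array too. Those of the mural, oligodendrocyte lineage, microglia, granule lineage and choroid plexus lists were not. The endothelial markers had a mean of 8.33 there compared with 5.81 and 6.53 on the other A-/G+ arrays and 8.49 to 8.91 in A+/G+. The part of these other cells in the values of the members was not tested. In bulk samples, fewer cells that express a gene and less RNA per cell cannot be told apart.

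The 9 other Adamts genes were mostly weak. Of their 16 probes, 2 exceeded background clearly on all 6 arrays and 7 on none. Limma called 0 of them higher in A-/G+ (3 at an unadjusted p under 0.05) and 1 higher in A+/G+, that of Adamts16. Adamts8, a proteoglycanase, passed the adjusted p without the limit on size. It gave 6.17, 6.37 and 6.52 in A+/G+ and 4.44, 4.41 and 5.04 in A-/G+, where 1 array was well above background (difference -1.72, SE 0.210, adjusted p = 0.0154 from limma). Adamts10, which binds fibrillin microfibrils, was higher in A-/G+ with 7.26, 7.49 and 7.35 against 8.57, 8.52 and 8.16 (difference 1.05, SE 0.138, adjusted p = 0.0183). Both passed in most fits and were lost without each A+/G+ array, with adjusted p from limma of up to 0.0745 for Adamts8 and 0.0851 for Adamts10, which was also lost without A-/G+ replicate 2.

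Of the remaining genes none passed the adjusted p at its brightest probe. Among the procollagen N-propeptidases, Adamts3 differed by -1.59 (adjusted p = 0.117 from limma) and Adamts14 by 0.60 (adjusted p = 0.147). Adamts14 was well above background on all 6 arrays, and Adamts3 on the 3 A+/G+ arrays only. Adamts6, a paralog of Adamts10, differed by 0.78 (adjusted p = 0.398), and its A-/G+ arrays spread from 5.61 to 7.22. Adamts7 and Adamts12, which cut cartilage oligomeric matrix protein, differed by -0.40 and -0.71 (adjusted p = 0.258 and 0.287). Adamts13, the protease of von Willebrand factor, was well above background on none of the 6 arrays. The same held for the second probes of Adamts3, Adamts8, Adamts10, Adamts14 and Adamts16.

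The ADAMTS-like proteins share the ancillary domains but lack the protease. Of their 7 genes, 1 passed in the direction of A+/G+ and 0 in that of A-/G+ (5.63% and 4.82% of all genes at their brightest probes; 0 also at an unadjusted p under 0.05 in the second direction). The median difference was -0.98, beside 0.046 for all genes. Adamtsl1 gave 7.27, 7.46 and 7.03 in A+/G+ and 6.56, 5.996 and 6.25 in A-/G+ (difference -0.98, SE 0.190, adjusted p = 0.0438 from limma). This was lost without every array other than A-/G+ replicate 1, with an adjusted p of up to 0.149. Adamtsl3 and Papln were well above background on none of the arrays.

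Among 12 known substrates, 1 was higher in A-/G+, 4 were higher in A+/G+ and 7 did not pass, with a median difference of -1.45. Versican was the one that was higher in A-/G+. The Vcan probe gave 10.48, 10.58 and 10.46 in A+/G+ and 12.77, 12.79 and 11.70 in A-/G+, where replicate 3 was again the lowest (difference 1.91, SE 0.330, adjusted p = 0.0338 from limma). Its adjusted p was between 0.00362 and 0.129 with 1 array left out, and it passed only without A-/G+ replicate 3. Neurocan, a brain proteoglycan of the same family, ran the other way. The Ncan probe gave 12.07, 11.95 and 11.99 in A+/G+ and 9.87, 9.26 and 9.05 in A-/G+ (difference -2.61, SE 0.226, adjusted p = 0.00776), and it passed with any 1 array left out.

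Brevican, the third brain proteoglycan of this family that was measured well, gave 15.48, 15.24 and 15.28 in A+/G+ and 14.80, 14.55 and 13.73 in A-/G+. The arrays of Bcan did not overlap, but its difference of -0.97 did not pass (adjusted p = 0.133 from limma). Aggrecan was well above background on none of the arrays. Fibronectin and the fibrillins, which form the microfibrils that several members bind, were higher in A+/G+. Fn1 differed by -1.53 (adjusted p = 0.0225), Fbn1 by -1.37 (adjusted p = 0.0204) and Fbn2 by -1.62 (adjusted p = 0.0382). All 3 were lost without each A+/G+ array and without A-/G+ replicate 2, and Fbn1 also without A-/G+ replicate 1, with adjusted p from limma of up to 0.0985 for Fn1, 0.0803 for Fbn1 and 0.143 for Fbn2. Among the fibrillar collagens, the substrates of Adamts2, Col1a2 differed by -1.61 (adjusted p = 0.0755), and its arrays did not overlap.

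The 13 regulators comprised inhibitors, a clearance receptor, cofactors, convertases and the enzymes that add O-linked fucose (Pofut2) and extend it with glucose (B3galtl). Of these, 3 passed higher in A-/G+, 4 passed higher in A+/G+ and 6 did not pass, with a median difference of -0.12. The inhibitors were split. Timp3, the main tissue inhibitor of the aggrecanases, gave 12.38, 12.52 and 12.42 in A+/G+ and 11.65, 11.52 and 11.33 in A-/G+ (difference -0.94, SE 0.103, adjusted p = 0.0123 from limma). Timp4 gave 11.55, 11.42 and 11.52 in A+/G+ and 12.53, 12.52 and 12.35 in A-/G+ (difference 0.97, SE 0.078, adjusted p = 0.00681). The protease trap A2m differed by -2.74 (SE 0.416, adjusted p = 0.0250) and was well above background on 1 of 3 A-/G+ arrays. Timp2 was bright in both fractions, and its difference of -1.11 did not pass (adjusted p = 0.0631).

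Lrp1, the receptor that takes up Adamts4 and Adamts5 from the matrix, was lower in A-/G+ (difference -0.86, SE 0.064, adjusted p = 0.00585 from limma). Sdc4, a syndecan that binds Adamts5, also was (difference -0.79, SE 0.103, adjusted p = 0.0179). It was named after its values were seen. Of the convertases, Furin differed by -0.40 and did not pass (adjusted p = 0.105 from limma), although its arrays did not overlap. Both convertases of the Pcsk5 and Pcsk6 pair were higher in A-/G+. Pcsk5 gave 7.60, 7.57 and 7.39 in A+/G+ and 9.13, 9.30 and 8.61 in A-/G+ (difference 1.49, SE 0.202, adjusted p = 0.0192), and Pcsk6 differed by 1.38 (SE 0.172, adjusted p = 0.0163). The cofactor Fbln1 and the enzyme B3galtl differed by -0.12 and -0.07. Timp3, A2m, Sdc4, Pcsk5 and Pcsk6 were lost without each A+/G+ array, and Pcsk5 also without A-/G+ replicate 1, with adjusted p from limma of up to 0.0638, 0.106, 0.0845, 0.0873 and 0.0782, respectively. Timp4 and Lrp1 passed with any 1 array left out.

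**Figure D3:**
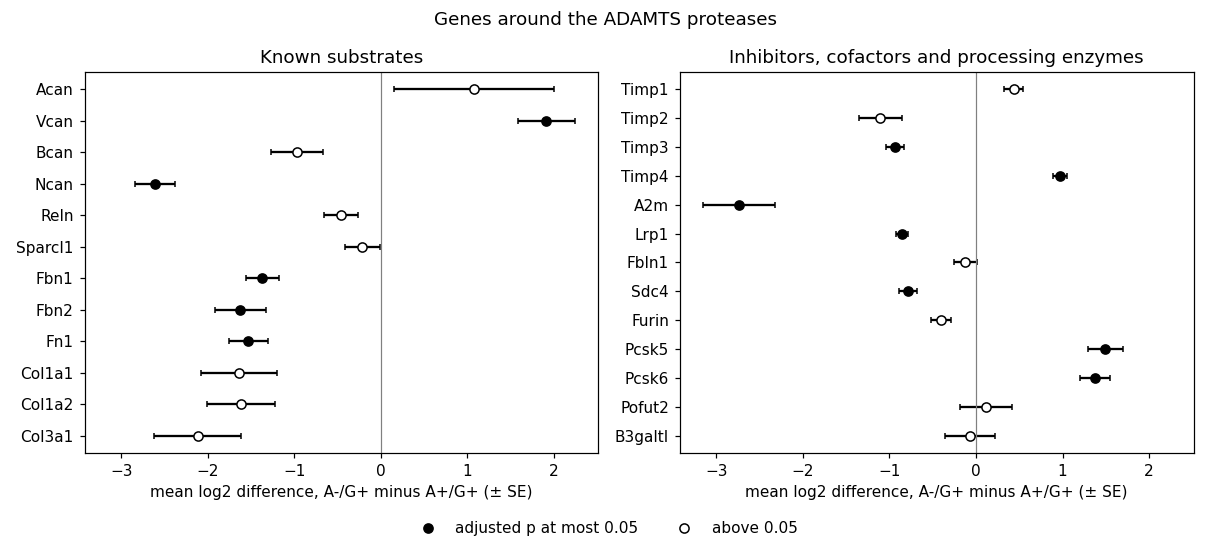
Mean log2 difference between A-/G+ and A+/G+ (x axis, ± SE, 3 arrays each) for 12 substrates (left) and 13 inhibitors, cofactors and processing enzymes (right), filled where the adjusted p from limma was at most 0.05. Vcan, Timp4, Pcsk5 and Pcsk6 are filled to the right of 0, and Ncan, Fbn1, Fbn2, Fn1, Timp3, A2m, Lrp1 and Sdc4 to the left.

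Markers of other cells moved with the fractions beside these results. The means of all 8 mural and all 8 meningeal fibroblast markers were higher in A+/G+, and 4 and 2 of them passed the adjusted p. Col1a1, Col1a2 and Col3a1 are on both the fibroblast and the substrate list, so these lists partly hold the same values. The mean mural level was 9.14 to 9.41 in A+/G+ and 6.21 to 7.50 in A-/G+, and that of the fibroblast markers was 12.6 to 12.9 and 9.94 to 11.4. The mean of the fibroblast markers was lowest on A-/G+ replicate 3, as were all 10 members and the means of several other lists, the astroglia list among them. All 8 endothelial markers also had a higher mean in A+/G+, of which Cdh5 passed (difference -1.80, adjusted p = 0.0182 from limma). Their part in the lower A-/G+ levels of Adamts2, Adamts9 and Adamts15 was not tested.

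Of the oligodendrocyte lineage markers, 3 of 8 passed higher in A+/G+, with Olig1 at -4.43 (adjusted p = 0.00417) and Olig2 at -4.23 (adjusted p = 0.00389), while Mbp at 0.79 (adjusted p = 0.0487) passed higher in A-/G+. Of the Purkinje markers 5 of 8 passed higher in A+/G+, with Pcp2 at -4.99 (adjusted p = 0.00867). No microglia or choroid plexus marker passed by limma (0 and 0 higher in A-/G+, and 1 and 0 higher in A+/G+, at an unadjusted p under 0.05), and Ptprc, the gene of the depleted CD45, was well above background on none of the arrays. Of the granule lineage markers only Pax6 passed (difference 1.54, adjusted p = 0.00730). All 6 Bergmann glia markers passed in the direction of A-/G+, where their median difference was 3.24. They were picked with results of this contrast known, so their count is not independent evidence of the direction. Gria4 was lost without each A+/G+ array, with an adjusted p from limma of up to 0.0583. Of the single markers given here, Atp1b2, Olig1, Olig2, Pcp2 and Pax6 passed with any 1 array left out. Cdh5 and Mbp were lost without each A+/G+ array and without A-/G+ replicate 2, with adjusted p from limma of up to 0.0839 and 0.168. Whether these cells account for the levels of Adamts5, Adamts17, Adamts18 and Adamts19 was not tested.

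**Figure D4:**
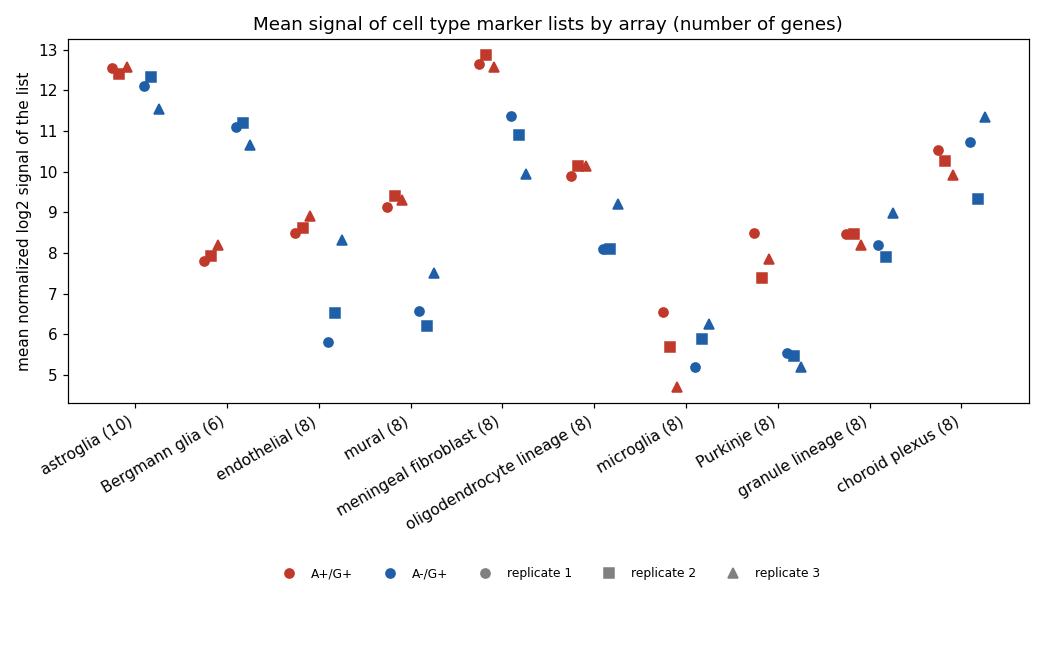
Mean normalized log2 signal (y axis) of 10 lists of cell type markers (x axis, number of genes in parentheses) on each array, with 3 A+/G+ and 3 A-/G+ arrays per list. The Bergmann glia list is higher in A-/G+, the mural, meningeal fibroblast and Purkinje lists are higher in A+/G+, and the endothelial mean of A-/G+ replicate 3 lies close to A+/G+.

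The directions of the members were stable under other processing, apart from the pair that overlapped. Over 11 settings the difference ranged from 2.11 to 3.77 for Adamts19, from 1.22 to 2.19 for Adamts18, from 1.06 to 2.67 for Adamts5, from 0.88 to 1.51 for Adamts17 and from 0.68 to 1.12 for Adamts1. It ranged from -1.29 to -1.003 for Adamts9, from -0.93 to -0.54 for Adamts15 and from -1.30 to -0.37 for Adamts2. Scaling by the 75th percentile in place of quantile normalization moved the median difference of all probes from 0.043 to 1.02. That median covers all 55681 probes, of which 26758 were well above background on no array, so it does not stand for measured genes. The values of 0.91 for Adamts1 and 1.12 for Adamts17 were close to it, but had hardly moved from 0.85 and 1.13. Adamts5 at 2.40, Adamts18 at 2.11 and Adamts19 at 3.52 were above it.

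**Figure D5:**
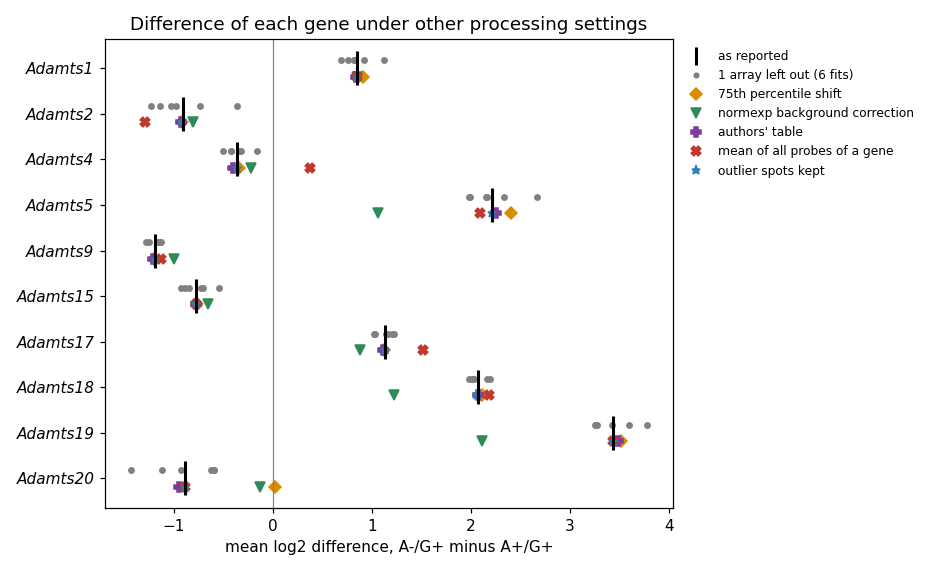
Mean log2 difference between A-/G+ and A+/G+ (x axis) of the 10 genes as reported and under 11 other settings, of which 6 leave out 1 array each. With normexp the values of Adamts5, Adamts18 and Adamts19 move toward 0, and those of Adamts4 and Adamts20 cross 0 under 1 setting each.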

How the data were processed

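The authors deposited, for each array, the scanner intensity of every spot after background correction (Agilent Feature Extraction 10.7.3.1), together with their own quantile normalized log2 table. Here the intensities were taken to log2, control spots and spots with outlier flags were left out, arrays were quantile normalized, and spots of 1 probe were averaged. Per the study's methods, a probe was called at an adjusted p of at most 0.05 with medians at least 4-fold apart. The test was limma 3.58.1 in R 4.3.3 over 55681 probes with Benjamini-Hochberg adjustment, where the methods used Student's test. It was tested on simulated data. Of 34836 gene names, 20980 matched the RefSeq table (GRCm38.p6), which served for names and neighbors only. Positions and probe sequences are those of the array annotation on mm9. Members and gene lists were chosen with earlier results of these data known. Named are all members and other Adamts genes. Of the ADAMTS-like, substrate and regulator lists, the genes past the adjusted p (at most 6) and up to 3 others by mean signal are named. Of the marker lists, only some of the genes that passed are named. Sdc4, Furin, the collagens shared between lists and genes listed as not well above background are named besides. Members carry no p-value. Where a probe was at background on every array of 1 fraction and well above it on every array of the other, its fold is a bound. The bound sets the brighter fraction's mean against, per array, the higher of the lowest signal well above background and the probe's own. The number of arrays limits the precision. Alternatives are given with the closing values. The result of 1 marker gene is not reported here.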

Additional observations from a re-analysis of the deposited data

How the results depend on the processing

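Counts are given for the direction of A-/G+ first and of A+/G+ second (222 and 851 of all probes, 5 and 0 of the member probes, 0 and 1 of the other Adamts probes, 4 and 8 of the substrates and regulators). Scaling by the 75th percentile gave 938 and 604 of all probes, so that A-/G+ made up 60.8% of the calls in place of 20.7%, and 5 substrates and regulators higher in A+/G+. Normexp gave 48 and 234 of all probes, 1 member probe higher in A-/G+ (Adamts19), 0 other Adamts probes and 12 substrates and regulators higher in A+/G+. The authors' table gave 2 other Adamts probes called in the direction of A+/G+. With the methods' t-test there were 121 and 487 of all probes, 2 member probes, and 2 and 4 substrates and regulators. With medians at least 2-fold apart there were 1340 and 1797 of all probes, 1 member probe higher in A+/G+, and 1 and 2 other Adamts probes. With no limit on size there were 2583 and 2589 of all probes, 1 member probe higher in A+/G+, and 1 and 3 other Adamts probes. Averaging all probes of a gene turned Adamts4 to 0.37, and the 75th percentile turned Adamts20 to 0.016. The cause was not tested. With 1 array left out, the counts ran from 77 to 490 and from 340 to 1458 of all probes, from 1 to 4 of the member probes higher in A-/G+, from 0 to 1 of the other Adamts probes higher in A+/G+, and from 1 to 5 and from 2 to 13 of the substrates and regulators. The highest counts over all probes were those without A-/G+ replicate 3. A filter on dim probes gave 204 and 1170 of all probes, 4 member probes and 12 substrates and regulators higher in A+/G+. A slide block could not be fitted, since no slide held both fractions. Signal over background limits weak genes in A-/G+ most.

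With the replicate number as a block, limma called 0 and 0 of all probes, 0 member probes, 0 other Adamts probes and 0 substrates and regulators in either direction, compared with 6317 and 5354 of all probes, 7 and 3 of the member probes, 1 and 5 of the other Adamts probes and 5 and 13 of the substrates and regulators at an unadjusted p under 0.05. The deviations of same-numbered samples correlated at 0.196, 0.113 and -0.114 over 17944 probes, so the numbers are not shown to pair the samples.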

Other observations

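After the values were seen, 2 pairs of neighboring Adamts genes were looked at, 1 of members and 1 of a member with another Adamts gene. In the RefSeq table, Adamts1 and Adamts5 are neighbors on chromosome 16 with only the non-coding 4930556C24Rik between them, and both had a higher mean in A-/G+. Adamts15 and Adamts8 are neighbors on chromosome 9 with 0 genes between them, and both had a higher mean in A+/G+.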
